A study of Mus musculus with 32 samples.

Results

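The genes Alb, which encodes serum albumin, and Afp, which encodes alpha-fetoprotein, lie next to each other on mouse chromosome 5. Their locus was examined here as the 150-kb window from 90.84 to 90.99 Mb of the genome build mm9. Every interval of the deposited lists whose centre lay in this window was taken as a member, which gave 75 of the 180039 intervals of 5 lists: 12 of 11666 peaks of the glucocorticoid receptor (GR), 11 of 22714 C/EBPβ peaks after vehicle, 14 of 25392 C/EBPβ peaks after dexamethasone, 17 of 56794 DNase I hypersensitive sites (DHS) after vehicle and 21 of 63473 DHS after dexamethasone. The window was fixed by position and not by any measured value, though earlier results of these data were known when it was chosen. DNase-seq finds DHS as stretches of chromatin that the enzyme DNase I cuts easily, and ChIP-seq finds peaks as stretches bound by a protein. All animals were male C57BL/6 mice of 8 weeks whose adrenal glands had been removed, so that controls and treated animals alike lacked the main source of their own glucocorticoid. Dexamethasone mice received 1 mg/kg of this synthetic GR ligand in complex with cyclodextrin, and vehicle mice received the cyclodextrin alone. The injection was intraperitoneal, in 300 ul of saline, and the series' design text gives 1 h. Each of the 5 lists stands for 1 assay and condition, with 2 samples per group in the labels, except that the GR list names no treatment. The lists hold positions only, with no signal, depth or replicate column. No difference between dexamethasone and vehicle therefore has a replicate check, and no test across samples was possible. The liver label could not be checked against marker RNA, since no RNA was analysed here. Exact 95% binomial intervals (Clopper-Pearson) are given in parentheses after shares, and they cover counting error only.

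Albumin is the main plasma protein of the adult and a product of hepatocytes. Alpha-fetoprotein is its counterpart in the fetus, made by the yolk sac and the fetal liver and silenced in the liver after birth. Both belong to 1 gene family that arose by duplication. C/EBPβ is a leucine zipper factor of hepatocytes, and GR is the nuclear receptor through which dexamethasone acts. In the RefSeq gene table of the assembly GRCm38.p6, the order of genes is Ankrd17, the long noncoding RNAs Gm9958 and Gm35999, then Alb, Afp and Afm, the last of which encodes the related plasma protein afamin. Positions were not converted between that assembly and mm9, so the intervals below are placed within the window and are not assigned to a promoter, exon or intron.

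The promoters of both genes are shown for a search for motifs of GR, C/EBP and other liver factors. Each run holds 250 bases before and 50 bases after the RefSeq start in GRCm38.p6, on the plus strand, and both of the 2 members had an entry. Capitals mark matches to the motifs searched on both strands.

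Alb: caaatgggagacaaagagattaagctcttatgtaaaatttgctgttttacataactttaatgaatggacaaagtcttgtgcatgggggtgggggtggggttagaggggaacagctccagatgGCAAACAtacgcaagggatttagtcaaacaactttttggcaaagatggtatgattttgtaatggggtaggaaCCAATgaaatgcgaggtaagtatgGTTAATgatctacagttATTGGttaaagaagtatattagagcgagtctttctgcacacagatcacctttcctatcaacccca

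Afp: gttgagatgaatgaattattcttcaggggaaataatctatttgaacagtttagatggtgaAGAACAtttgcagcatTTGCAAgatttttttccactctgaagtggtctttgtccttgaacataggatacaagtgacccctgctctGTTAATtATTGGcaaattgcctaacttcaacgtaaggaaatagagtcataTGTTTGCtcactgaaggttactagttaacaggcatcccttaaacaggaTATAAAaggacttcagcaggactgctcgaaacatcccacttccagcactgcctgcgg

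The Alb promoter held 2 matches to the CCAAT box (letters CCAAT), 1 to a part of the HNF1 site (GTTAAT) and 1 to a FOXA site (TGTTTGC). The Afp promoter held 1 match to each of these 3 motifs. It also held 1 match each to the C/EBP core (TTGCAA), the GR hexamer (TGTTCT) and the TATA box (TATAAA), none of which was found in the Alb window. The promoters thus shared 3 motifs, and no 2 matches overlapped. The promoter of the neighbour Afm also held CCAAT (1 match) and GTTAAT (2), so these are not particular to the pair. It held TATAAA (1) as well, which was in Afp but not in Alb. TGTTTGC was not found in it. No match to any motif was counted for Gm35999, the neighbour before Alb, but whether its promoter had an entry was not recorded. Of 32851 promoter windows of the same length in the RefSeq table, 37.4% held CCAAT, 7.10% GTTAAT, 5.07% TGTTTGC, 6.23% TTGCAA, 19% TGTTCT and 13.6% TATAAA. No match was found in either promoter to the C/EBP palindrome TTGCGCAA (0.183% of windows), the FOXA site TGTTTAC (3.65%), the HNF4 site CAAAGTCCA (0.475%) or the full HNF1 site, which is GTTAAT and ATTAAC joined by any base (0.00913%). These are matches of letters, and the lists do not show which of them a factor occupied.

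The locus was dense in all 5 kinds of interval. Its 12 GR peaks compare with a median of 0 and a mean of 0.719 in the 16033 other windows of 150 kb on the 19 autosomes, and 21 of those windows (0.131%) held as many or more. For C/EBPβ, 127 windows (0.792%) reached its 11 vehicle peaks and 65 (0.405%) its 14 dexamethasone peaks. For DHS, 167 windows (1.04%) reached its 17 vehicle sites and 71 (0.443%) its 21 dexamethasone sites. Windows at least as high in every list at once numbered 7. Counts per window depend on its size. With windows of 100 kb around the same midpoint the locus held 7 GR peaks, and 169 of 24060 windows (0.702%) held as many. In that size the shares were 3.06% and 1.04% for its vehicle and dexamethasone C/EBPβ peaks, and 1.82% and 0.466% for its DHS. When DHS within 500 bp of each other were merged, an alternative chosen after seeing the data, 1.58% of the 150-kb windows reached its dexamethasone DHS and 0.649% its vehicle DHS. Merging also joined the last DHS of the locus in each list to one past the far edge, which moved its centre out of the window.

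**Figure D1:**
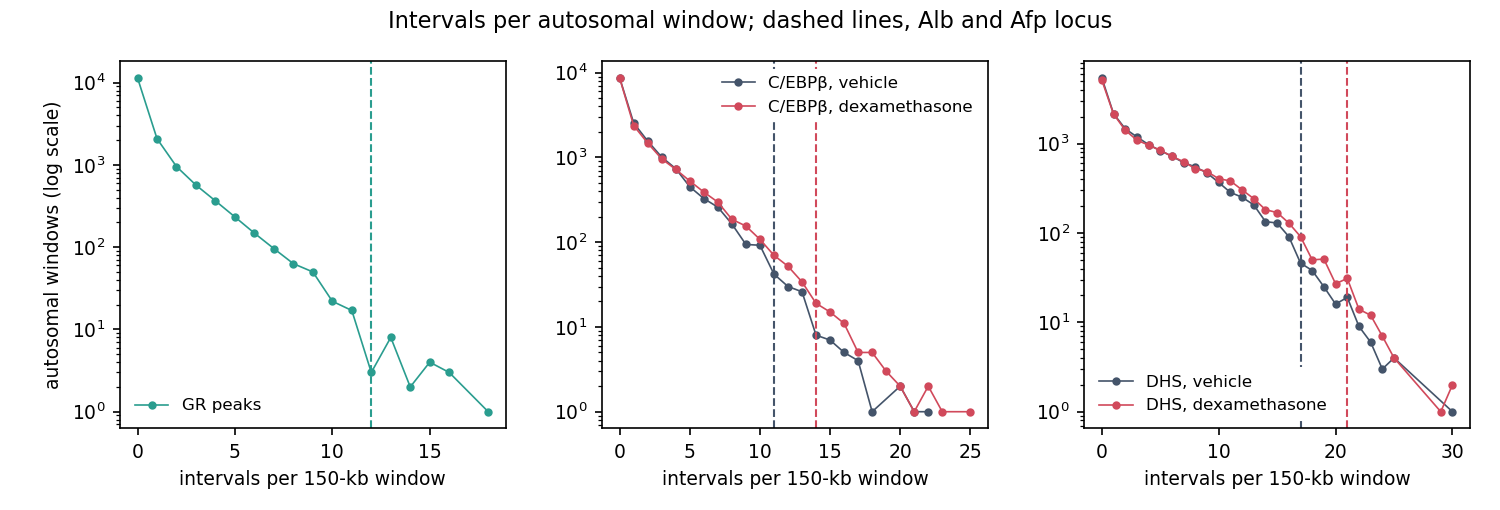
Number of autosomal 150-kb windows (y axis, log scale) by the number of intervals each holds (x axis), for GR peaks, C/EBPβ peaks and DHS, with vehicle in blue and dexamethasone in red. Dashed lines mark the Alb and Afp locus at 12 GR peaks, 11 and 14 C/EBPβ peaks, and 17 and 21 DHS, all far to the right of the bulk of windows.

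The adjacent windows were less dense. The preceding window of 150 kb held 1 GR peak, 3 and 4 C/EBPβ peaks (vehicle and dexamethasone) and 5 and 6 DHS. The following window held 2 GR peaks, 4 and 5 C/EBPβ peaks and 7 and 7 DHS. Of the 7 windows on each side, the highest GR count was 7 and the highest dexamethasone DHS count was 14, both in the most distant preceding window.

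**Figure D2:**
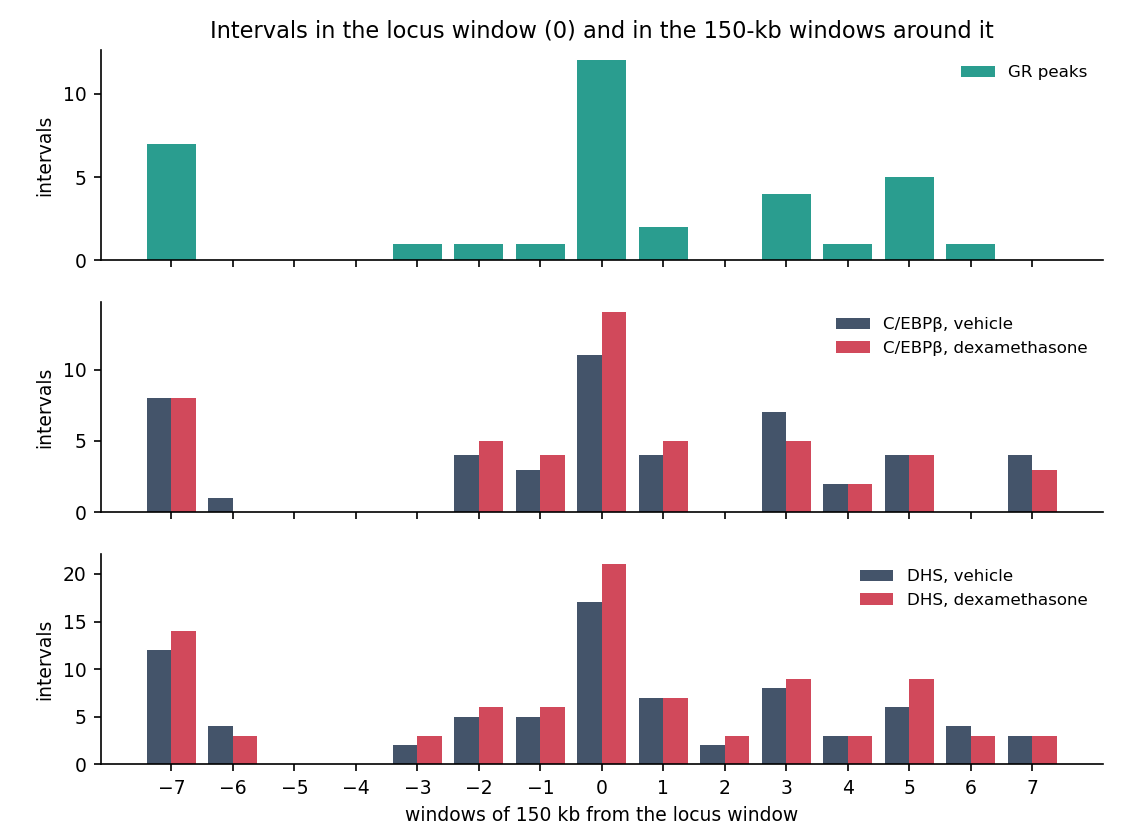
Intervals in the window of the Alb and Afp locus (0) and in 7 windows of 150 kb on each side (x axis), as bars for GR peaks, C/EBPβ peaks and DHS, with vehicle in blue and dexamethasone in red. The locus is the highest of the 15 windows in each panel, with 12 GR peaks against 7 or fewer elsewhere.

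Intervals were not spread evenly within the window. The first 75 kb held 11 of the 12 GR peaks, 10 of 11 vehicle and 13 of 14 dexamethasone C/EBPβ peaks, and 13 of 17 vehicle and 18 of 21 dexamethasone DHS. The last 75 kb held 1 GR peak, 1 C/EBPβ peak per list, and 4 vehicle and 3 dexamethasone DHS. The longest spans without a DHS in the dexamethasone list were 33301 bp, from 90948130 to 90981431, and 32509 bp, from 90915154 to 90947663. Between them lay 1 dexamethasone DHS, which held neither GR nor C/EBPβ. The occupied sites of the locus were therefore a chain over its first 75 kb and a pair near its far end.

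**Figure D3:**
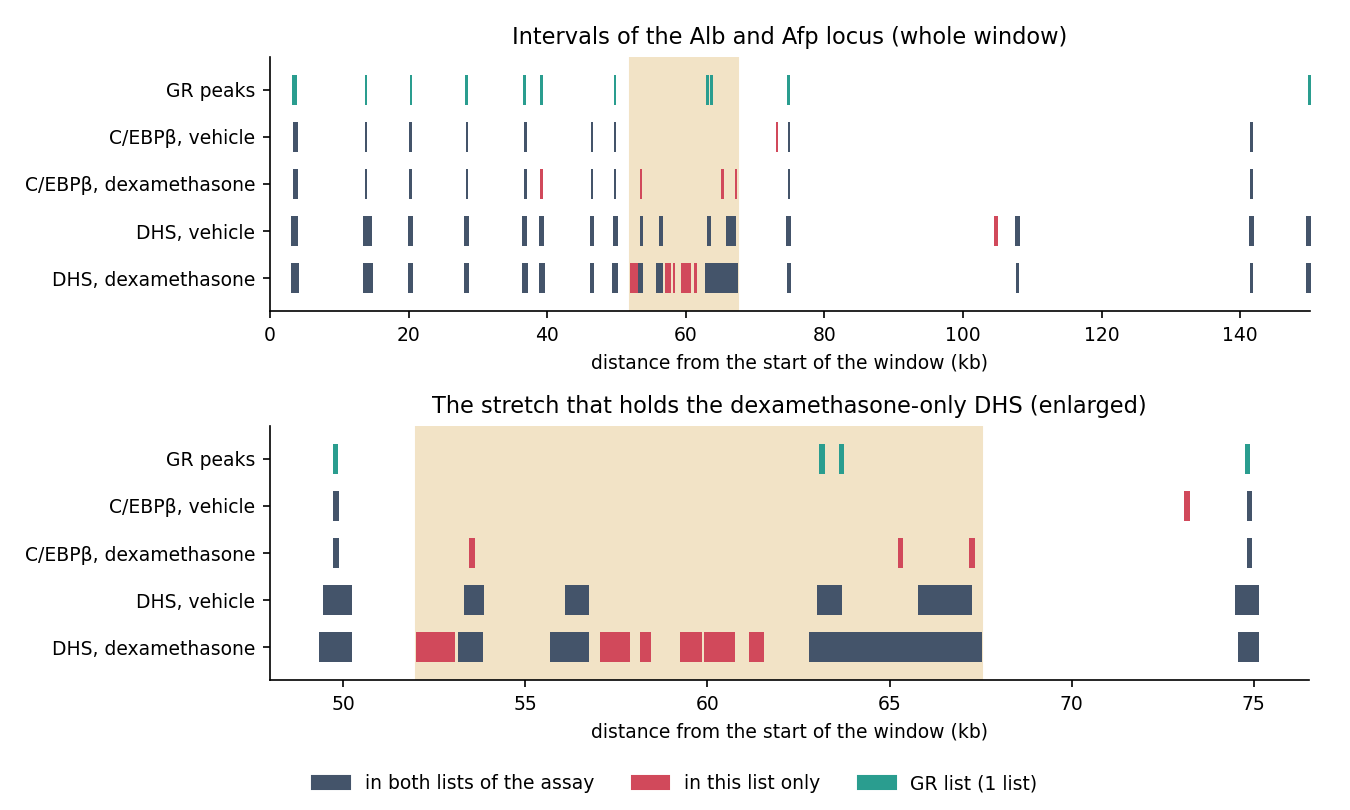
Intervals of the 5 lists along the Alb and Afp locus (x axis, kb from the start of the window), whole window above and the shaded stretch enlarged below; blue intervals are in both lists of their assay, red ones in that list only, green ones are GR peaks, and the narrowest bars are widened to be visible. The 6 red dexamethasone DHS all lie in the shaded stretch, which holds 9 dexamethasone and 4 vehicle DHS.

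Every GR peak of the locus lay in a DHS of the vehicle list. The number was 12 of 12 (100%, 73.5 to 100), against 79.2% of all GR peaks. A vehicle C/EBPβ peak overlapped 9 of the 12 (75%, 42.8 to 94.5), against 50.4% of all GR peaks, and a dexamethasone C/EBPβ peak overlapped 10 (83.3%, 51.6 to 97.9), against 62% of all. All 3 intervals take in the share of the whole list, so at 12 peaks a difference from other GR peaks was not detectable. Where at least 50% of the shorter interval had to be covered, the 9 and 10 became 6 and 7, which is 50% and 58.3% against 47.2% and 57.8% of all GR peaks under the same rule.

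The GR peaks followed each other along the window at 3.35, 3.76, 13.9, 20.3, 28.3, 36.8, 39.2, 49.8, 63.1, 63.7, 74.8 and 149.975 kb from its start. At 8 sites the GR centre was close to a C/EBPβ peak of both lists with its centre in the window, at distances of 105, 24, 1, 48, 81, 96, 15 and 51 bp. The closest pair was at 13.9 kb, where the GR peak spanned 90853783 to 90853933 and the C/EBPβ peak 90853784 to 90853934. The GR peak at 149.975 kb was 46 bp from a C/EBPβ peak of both lists that itself fell 20 bp outside the window and is no member. Across the 12 GR peaks the median distance to the nearest dexamethasone C/EBPβ centre was 49.5 bp, close to the 45 bp over all GR peaks.

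The remaining 3 GR peaks differed from this pattern. The peak at 39.2 kb (90879081 to 90879231) lay 8 bp from a dexamethasone C/EBPβ peak that the vehicle list lacks, with 2296 bp to the nearest C/EBPβ centre of the vehicle list. The peaks at 63.1 and 63.7 kb (90903071 to 90903221 and 90903606 to 90903756) overlapped no C/EBPβ peak of either list, and the nearest dexamethasone C/EBPβ centres were 2153 and 1618 bp away. Both lay in a single vehicle DHS of 683 bp. GR at the locus was thus accompanied by C/EBPβ at 10 of 12 peaks after dexamethasone, with the 2 exceptions side by side.

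C/EBPβ peaks were in large part the same in both lists. Of the 14 dexamethasone peaks 10 were also in the vehicle list, and 4 were absent from it (28.6%, 8.39 to 58.1), against 20% of all dexamethasone C/EBPβ peaks. Of the 11 vehicle peaks 1 was absent from the dexamethasone list (9.09%, 0.230 to 41.3), against 10.6% of all. Both intervals take in the shares of the whole lists, so a difference from them was not detectable. The 4 peaks found after dexamethasone only began at 90879073, 90893464, 90905224 and 90907189, and the first of them is the one at the GR peak of 39.2 kb. The other 3 lay at 53.5, 65.3 and 67.3 kb, within one stretch of DHS described below, and overlapped no GR peak. The 1 vehicle-only peak, from 90913098 to 90913248, lay outside the DHS of both lists.

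A difference from the whole lists in how often C/EBPβ peaks lay in DHS was not detectable at the locus. All 14 dexamethasone C/EBPβ peaks lay in a dexamethasone DHS (100%, 76.8 to 100), against 85.8% of the whole list, and 10 of 11 vehicle peaks lay in a vehicle DHS (90.9%, 58.7 to 99.8), against 82.9%. Both intervals take in the whole-list share. Seen from the DHS, a vehicle C/EBPβ peak was in 10 of 17 vehicle DHS (58.8%, 32.9 to 81.6), against 31.1% of all vehicle DHS. A dexamethasone C/EBPβ peak was in 13 of 21 dexamethasone DHS (61.9%, 38.4 to 81.9), against 31.8% of all. A GR peak was in 10 of 17 vehicle DHS (58.8%, 32.9 to 81.6) and 10 of 21 dexamethasone DHS (47.6%, 25.7 to 70.2), against 15.4% and 16.7% of all. Of the 14 dexamethasone C/EBPβ peaks 9 carried a GR peak (64.3%, 35.1 to 87.2), against 28.6% of all. With an overlap of 1 bp, the intervals of these 5 shares lay above the whole-list values. The 5 shares count largely the same sites, so they are not 5 separate excesses. Their intervals also treat neighbouring sites as independent, which was not tested. Where the centre of the DHS had to lie in the peak, C/EBPβ was in 6 of 17 vehicle DHS (35.3%, 14.2 to 61.7) against 21.1% of all, and in 8 of 21 dexamethasone DHS (38.1%, 18.1 to 61.6) against 20.2%, so both intervals then took in the whole-list share. Under that rule GR was in 6 of 17 vehicle DHS (35.3%, 14.2 to 61.7) against 9.39% of all, and in 6 of 21 dexamethasone DHS (28.6%, 11.3 to 52.2) against 10.2%, and both intervals still lay above it. GR at dexamethasone C/EBPβ peaks, with at least 50% of the shorter interval covered, came to 6 of 14 (42.9%, 17.7 to 71.1) against 26.5% of all, an interval that takes it in. The DHS of the locus were also wider, with medians of 683 bp after vehicle and 823 bp after dexamethasone against 596 and 591 bp over all DHS, and a wider interval holds a peak more often. The part of width in these shares was not tested.

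After vehicle, the DHS with most C/EBPβ peaks lay at the start of the window. It spanned 90843043 to 90844076 after vehicle and 90843041 to 90844154 after dexamethasone, and 2 C/EBPβ and 2 GR peaks lay in it in each case. The second widest DHS of both lists, at 14.1 kb, was 1365 bp wide after vehicle and 1469 bp after dexamethasone, and held 1 GR and 1 C/EBPβ peak whose centres were 1 bp apart. Both DHS were thus in the vehicle list with C/EBPβ on them, and were in the dexamethasone list at nearly the same positions.

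The lists differed most in one stretch. Of the 21 dexamethasone DHS 6 overlapped no vehicle DHS (28.6%, 11.3 to 52.2), against 23.8% of all dexamethasone DHS, so the share itself was close to the background. All 6 lay within 9559 bp, between 90891991 and 90901550. They spanned 90891991 to 90893071, 90897045 to 90897868, 90898149 to 90898448, 90899253 to 90899851, 90899893 to 90900754 and 90901155 to 90901550. Their widths ran from 299 to 1080 bp, with a median of 710 bp against 476 bp for all dexamethasone-only DHS. None of the 6 held a GR peak or a dexamethasone C/EBPβ peak (100% without, 54.1 to 100), against 80.5% of all dexamethasone-only DHS, a share that the interval takes in. The nearest GR centre was between 1794 and 5690 bp from the centre of each, and the nearest dexamethasone C/EBPβ centre between 1008 and 5747 bp.

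Just beyond these sites lay the widest DHS of the locus. It ran from 90902802 to 90907531 after dexamethasone, and its width of 4729 bp ranked 11 among the 63473 dexamethasone DHS. After vehicle the same ground held 2 separate DHS, from 90903013 to 90903696 (683 bp) and from 90905793 to 90907260 (1467 bp, the widest vehicle DHS of the locus). It held the 2 GR peaks without C/EBPβ and 2 of the 4 dexamethasone-only C/EBPβ peaks, one of which lay in the part between the 2 vehicle DHS.

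From the first dexamethasone-only DHS to the end of the widest one, 15540 bp, DHS covered 3333 bp (21.4%) after vehicle and 10532 bp (67.8%) after dexamethasone. That is 3.16 times as much, with 9 DHS against 4. In the rest of the window DHS covered 9743 bp after vehicle and 9476 bp after dexamethasone, a ratio of 0.973, while over the whole lists the ratio was 1.11. The difference in covered sequence at the locus was thus located in this stretch, which was marked out by where the dexamethasone-only DHS lie and so describes them. The 8 gaps between its 9 dexamethasone DHS had a median of 349 bp and the shortest was 42 bp. When DHS of one list within 500 bp of each other were merged, the alternative named above, 1 of 15 dexamethasone DHS (90899253 to 90901550) overlapped no vehicle DHS instead of 6 of 21. The 15 leave out the last DHS of the locus, which merging moved out of the window.

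Per 150-kb window the extra cover at the locus was rare elsewhere. The window held 13076 bp in vehicle DHS and 20008 bp in dexamethasone DHS, a difference of 6932 bp, and 10 of the 16033 other windows differed by more. The median difference was 0 bp. In cover after dexamethasone 8 windows were above the locus, and in cover after vehicle 91 were. Of the 10 windows with a larger difference, the one that starts at 5790000 on chromosome 19 (9180 bp) and the one at 96690000 on chromosome 8 (8315 bp) also had no GR peak in their 8 and 5 dexamethasone-only DHS, while the other 8 windows had from 1 to 5 dexamethasone-only DHS with GR.

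**Figure D4:**
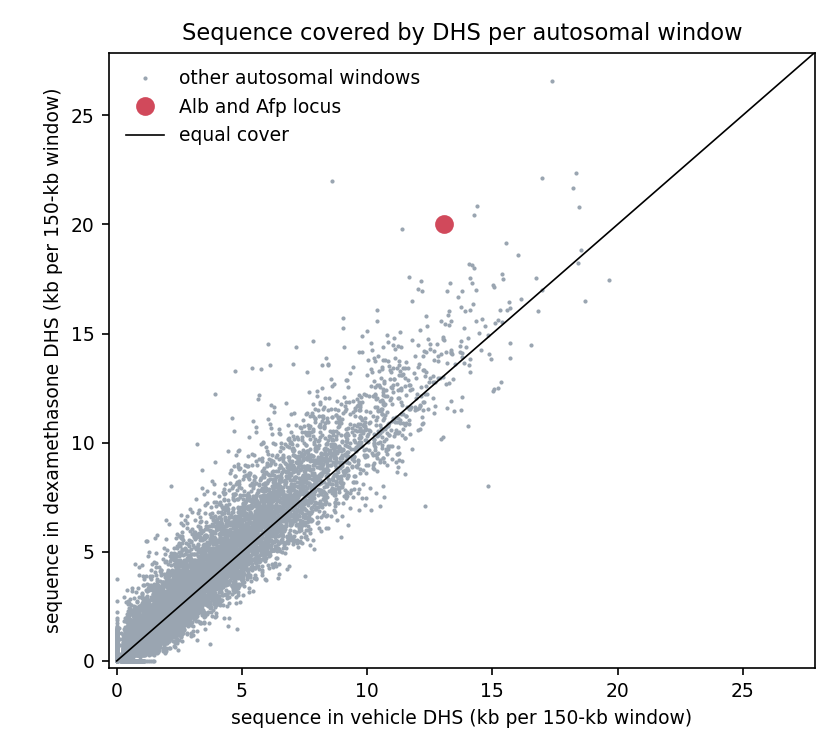
Sequence covered by DHS in each autosomal 150-kb window, after vehicle (x axis, kb) and after dexamethasone (y axis, kb), with a line of equal cover. Each grey point is 1 of 16033 windows, and the Alb and Afp locus (red) lies above the line at 13076 bp and 20008 bp.

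The crowding of dexamethasone-only DHS was also set beside bins of 10 kb, a comparison added after the values were seen. The bin from 50 to 60 kb of the window held 4 dexamethasone-only DHS and 6 dexamethasone DHS. It was the bin of the locus with most dexamethasone-only DHS, so a highest value is set beside single bins. The comparison was not repeated with merged DHS. Of 240789 other autosomal bins 28 held as many dexamethasone-only DHS (0.0116%), and in 12 of these none held a GR peak. Among the 21 windows of 150 kb with as many GR peaks as the locus, dexamethasone-only DHS numbered from 0 to 7, and 7 windows had at least 6. In those 7 windows between 1 and 4 of the dexamethasone-only DHS held a GR peak, against 0 of 6 at the locus. Among the rest of the 21, GR was likewise in 0 of 2 at 137790000 on chromosome 3 and 0 of 3 at 97440000 on chromosome 4. The window at 6990000 on chromosome 15 had no dexamethasone-only DHS, and all others had at least 1 with GR. Windows not chosen for GR were also counted. At least 6 dexamethasone-only DHS lay in 220 of the 16033 other windows (1.37%), and in 77 of the 220 these DHS held no GR peak. At least 6 dexamethasone-only DHS without GR or C/EBPβ lay in 79 of the 16033 windows (0.493%).

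Widths were compared over the DHS matched one to one, which leaves out the widest DHS because it overlaps 2 vehicle DHS. Of 14 such DHS, 9 were wider after dexamethasone (64.3%, 35.1 to 87.2), against 51.1% of the 44381 matched DHS of the whole lists, and 5 were narrower. The log2 ratio of dexamethasone over vehicle width had a median of 0.11 and ran from -0.66 to 0.69, beside a median of 0.01 over all matched DHS. Those holding GR (9, of which 6 wider) had a median of 0.11, and those without it (5, of which 3 wider) 0.10. Over all matched DHS with GR the median was 0.12, so the GR sites of the locus were near that value.

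Widths also differed along the window. The largest ratio was at the DHS from 90895687 to 90896747, without GR or C/EBPβ, which was 1060 bp wide after dexamethasone and 658 bp after vehicle (log2 ratio 0.69). It lies inside the stretch of dexamethasone-only DHS. Next were the DHS with the dexamethasone-only C/EBPβ peak at 39.2 kb (886 and 672 bp, 0.40) and that at 53.5 kb (687 and 525 bp, 0.39). The lowest ratios were at 107.9 kb (467 and 738 bp, -0.66) and 141.6 kb (432 and 617 bp, -0.51), in the sparse part of the window. All 4 matched DHS from 74.9 kb onward were narrower after dexamethasone, and 9 of the 10 before it were wider. This order by position was noticed after the values were seen and has no test.

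**Figure D5:**
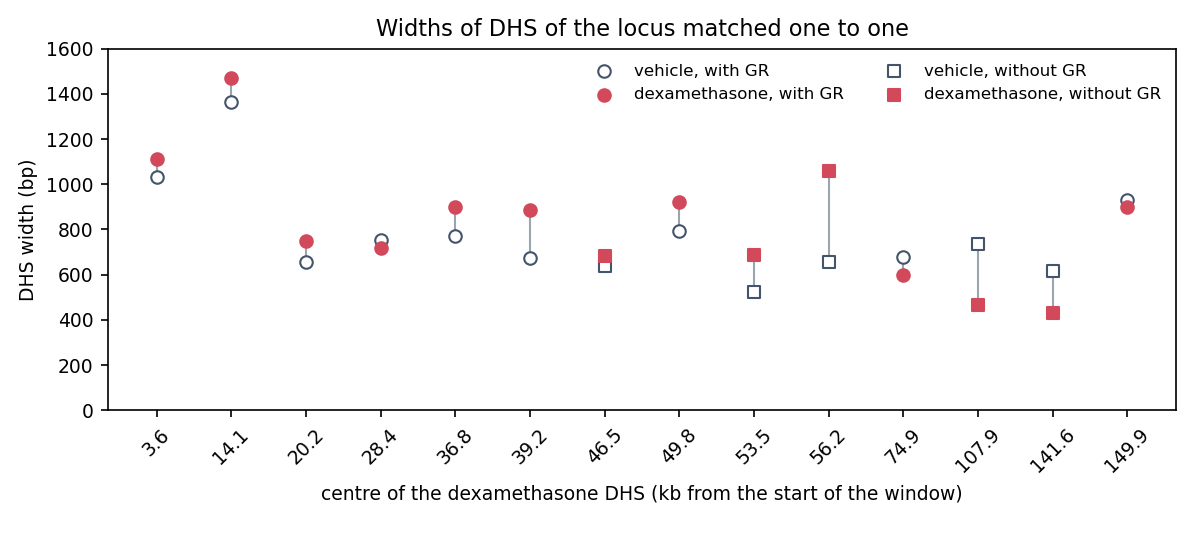
Width in bp (y axis) of the 14 DHS of the locus matched one to one between the lists, in order along the window (x axis, kb from its start, not to scale), with vehicle open, dexamethasone filled, circles for DHS with a GR peak and squares for those without. The 4 sites from 74.9 kb onward are narrower after dexamethasone, and the site at 56.2 kb has the largest difference.

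The share of vehicle-only DHS could not be told apart from that of the whole list. One of 17 vehicle DHS, from 90944541 to 90945035 (494 bp), was absent from the dexamethasone list (5.88%, 0.149 to 28.7), against 14.9% of all vehicle DHS. Among DHS above the median width of their list it was 2 of 15 (13.3%), against 20.3% of all such DHS. The 1 site held no GR and no C/EBPβ peak and lay in the sparse last part of the window, near the DHS at 107.9 kb that was narrower after dexamethasone.

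In the 10 kb past the far edge of the window lay a single further GR peak, which had C/EBPβ beside it. A DHS of 727 bp after vehicle and 743 bp after dexamethasone had its centre 928 and 968 bp beyond the edge, and held neither factor. A wider one, 1749 and 1810 bp, followed 7442 and 7499 bp out with a GR peak (90997929 to 90998079) and a C/EBPβ peak of both lists (90997922 to 90998075). No interval had its centre in the 10 kb before the window.

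The 5 autosomal windows most like the locus in their 5 counts were chosen by the Euclidean distance over log2(count + 1). The closest, at a distance of 0.21, starts at 46740000 on chromosome 18 with 12 peaks of GR, 10 and 14 of C/EBPβ, and 15 and 21 DHS. It had 6 dexamethasone-only DHS, as did the locus. The next start at 60690000 on chromosome 13 (0.23) and 10890000 on chromosome 8 (0.31), followed by 129090000 on chromosome 6 and 96540000 on chromosome 13 (0.33 each). They held from 10 to 12 GR peaks and from 4 to 9 dexamethasone-only DHS. In these numbers the Alb and Afp locus has near equals elsewhere in the genome.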

How the data were processed

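DNase-seq and ChIP-seq intervals from the livers of dexamethasone-treated and vehicle-treated mice were analysed. The authors' deposited values are positions only (a chromosome, start, end and running identifier), and CASAVA 1.8 and mm9 are named per the submitters' processing notes. For the aligner, peak caller, threshold and pooling of samples the entry is: not given in the sources used here. Depth per sample is therefore unknown, and the number of per-sample columns left out was 0. Whether positions count from 0 or 1 is not stated, so they are printed as in the files and treated as half-open.

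Intervals were assigned to windows by their centre, and an overlap of 1 bp or more made 2 intervals shared. The 16033 comparison windows lie on a grid with the locus as one cell. List-only intervals overlap none of the other list of their assay. Counts, shares and widths are descriptions with no p-value. Named singly were all GR peaks, list-only intervals, the 3 widest DHS per list, the DHS with most C/EBPβ peaks and the 5 most alike windows. The dexamethasone list holds 3 duplicate rows, none in the locus. Members, window and motifs were chosen with earlier results of these data known. Overlap counts equalled those of bedtools 2.31.1, and on simulated lists 200 of 200 planted list-only DHS came back. They were planted past the last vehicle DHS of their chromosome, so their placement fixed this outcome. It therefore does not test calls among neighbouring DHS. Python 3.11.15, numpy 2.4.6, scipy 1.17.1 and matplotlib 3.10.9 were used. The adenovirus, polymerase II and input samples were not analysed here. Promoters are from RefSeq (GRCm38.p6).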

Additional observations from a re-analysis of the deposited data

How the results depend on the processing

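Of 89 recomputed values, 72 stayed within 1.5 times the reported one, a limit that takes in falls from 9 to 6 and from 6 to 4. The other 17 came from 100-kb windows, windows with a vehicle DHS, the width filter, merging and the centre rule. Some of the 72 could not change and are no check. The width filter and merging act on DHS only. Window counts of GR and C/EBPβ peaks, and of GR peaks with C/EBPβ, do not use DHS. For matched widths, a setting that left out DHS of certain fixed widths removed none at the locus, where all DHS were wider. With windows of 100 kb, the share of windows that reached the locus was 0.702% for GR, 3.06% and 1.04% for vehicle and dexamethasone C/EBPβ, and 1.82% for vehicle DHS. Among windows with a vehicle DHS it was 0.198% for GR, 1.20% and 0.613% for C/EBPβ, and 1.57% and 0.670% for DHS, since windows without any DHS then drop out of the total. With DHS above the median width of their list they were 0.125% for vehicle and 0.106% for dexamethasone DHS, and 2 of 15 vehicle DHS were vehicle-only. With DHS within 500 bp merged, chosen after seeing the data, they were 0.649% and 1.58%, and 1 of 15 dexamethasone DHS was dexamethasone-only. With the centre of the DHS required in a C/EBPβ peak, 6 of 17 vehicle and 8 of 21 dexamethasone DHS held one, a rule that asks more of wide intervals. Where vehicle and dexamethasone DHS within 500 bp counted as shared, 4 of 21 dexamethasone DHS were dexamethasone-only (19%), against 20.7% of all. GR peaks with vehicle C/EBPβ were 6 of 12 instead of 9 under the rules of 50% cover and of the centre. GR peaks in vehicle DHS were 12 of 12 under each overlap rule, width filter, merge and shift of the edges tried. The DHS width filter leaves C/EBPβ classes as they are and was not run for them. No paired analysis was possible because the lists carry no replicate columns, and no replicate could be left out for the same reason. Without signal or depth, an interval absent from a list cannot be told apart from one just under its threshold.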
